A study of Oryctolagus cuniculus with 6 samples.

Results

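The cone phototransduction genes were described in 3 normal and 3 proliferative vitreoretinopathy (PVR) retina samples from adult rabbits. The 10 genes are OPN1SW, GNAT2, GNB3, GNGT2, PDE6C, PDE6H, CNGA3, CNGB3, ARR3 and GRK7, and all 10 were found by symbol among the 28788 gene rows of the deposited tables. The rule that chose them was their place in the cascade and used no measured value, although earlier results of these data were known when it was set. In the PVR model the sclera was opened, some vitreous was aspirated, and platelet-rich plasma was injected in its place, while nothing beyond the word normal describes the other group. The strain, the interval between injection and sampling, the part of the retina taken and whether each sample is a separate animal are not given in the sources used here. The p-values therefore set the group difference against the spread between these samples, which may not be the spread between animals.

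Cones are the photoreceptors of daylight and colour vision. In their outer segments light changes the shape of an opsin, the opsin activates the G protein transducin, and transducin relieves a phosphodiesterase of its inhibitory subunit, so that cyclic GMP is broken down and the cyclic nucleotide-gated channel closes. A kinase and an arrestin then silence the opsin. Rods use a parallel cascade, most of it built from separate genes.

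No cone gene passed the test between the groups, and most had moderately lower fitted values in PVR. Of the 10 genes, 0 had an adjusted p under 0.05 (quasi-likelihood test of edgeR, Benjamini-Hochberg adjustment over 18697 genes), against 1.70% of all genes tested and 0.615% called lower in PVR. The share of all genes that also had a log2 fold change beyond 1 was 1.01%. At an unadjusted p under 0.05, GNAT2 and PDE6H were called, 2 of the 10 and both lower, against 9.94% of all genes called lower. DESeq2 also called 0 of the 10, against 8.75% of the genes to which it gave an adjusted p. The fitted log2 fold change was below 0 for 9 of the 10 and for 51.1% of all genes. The median over the 10 was -0.26, and the median over all genes was -0.0088. In bulk tissue, fewer cones and less RNA per cone cannot be told apart.

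The samples held between 31904593 and 43035080 counted reads. The cone genes held between 536 and 24410 counts per sample, so the counting error at each gene's lowest count was between 0.958% and 4.32%. The spread between samples exceeded that error for all 10 genes in the normal group and for 9 in the PVR group, OPN1SW being the exception. Normal replicate 2 stood apart, because 8 lens genes took 3.12% of its counts, against 0.00152% and 0.00121% in normal replicates 1 and 3 and 0.0272% to 0.0308% in the PVR samples. Results are therefore also given without this sample.

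Levels are given in FPKM, which divides by 1 length per gene, so comparisons between genes depend on the lengths used. Counts gave another order. In normal replicate 1, GNAT2 held 17201 counts and ARR3 12811, although ARR3 stood above GNAT2 in FPKM. The mean level differed 48.5-fold between the highest and the lowest cone gene in normal retina and 50.3-fold in PVR retina, and the order of the means was identical in both groups. PDE6H stood first, followed by ARR3, OPN1SW, GNB3, GNAT2, GNGT2, PDE6C, CNGB3, GRK7 and CNGA3. In both groups the ranges of PDE6H and ARR3 overlapped, as did those of OPN1SW and GNB3 and those of GNAT2 and GNGT2. Overlapping ranges do not show equal levels, because both genes of a pair were read in the same samples. PDE6H read higher than ARR3 within every sample, whereas the order within the other pairs varied between samples. GRK7 and CNGA3 overlapped in normal retina and were separate in PVR retina. The other neighbours had separate ranges. Summed over the 10 genes, the FPKM was 1083, 723 and 1002 in normal replicates 1, 2 and 3 and 793, 724 and 875 in PVR replicates 1, 2 and 3, and the groups overlapped through normal replicate 2.

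**Figure D1:**
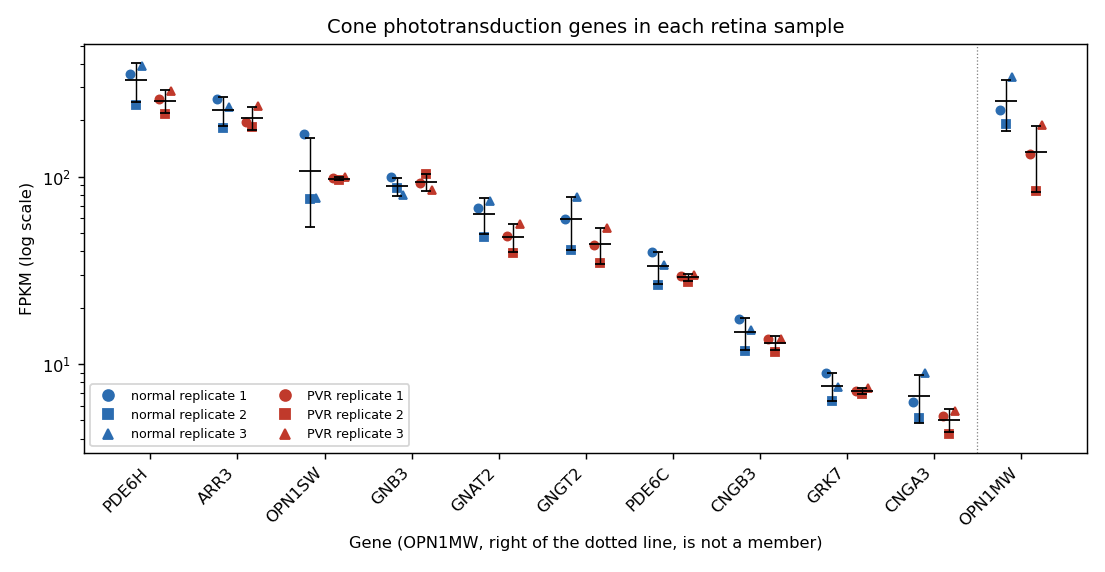
FPKM on a log scale of the 10 cone genes and of OPN1MW in each of the 6 samples (points, shaped by replicate), with the mean and SD of each group (black bars, n = 3). The genes are ordered by their mean in the normal samples, from PDE6H at 329 to CNGA3 at 6.77, and the points of both groups overlap for all 10 cone genes of the list.

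The opsins absorb the light. OPN1SW, the short-wavelength cone opsin, read 169, 75.8 and 77.3 FPKM in normal replicates 1, 2 and 3 and 98.0, 95.8 and 99.1 FPKM in PVR replicates 1, 2 and 3. All PVR samples lay above normal replicates 2 and 3 and below normal replicate 1. The normal mean was 108 ± 53.6 and the PVR mean 97.6 ± 1.67 FPKM (SD, n = 3). The log2 fold change, always PVR over normal, was -0.21 (standard error 0.30, 95% interval -0.90 to 0.48, adjusted p = 0.708, edgeR). Its direction rested on normal replicate 1, without which the log2 fold change was 0.28 (edgeR adjusted p = 0.188).

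OPN1MW, the opsin of the other cone type, is not among the 10 genes. It read 226, 192 and 340 FPKM in normal retina and 133, 83.6 and 189 FPKM in PVR retina, so the groups were separate by a narrow margin. The means were 253 ± 77.3 and 135 ± 52.5 FPKM (SD, n = 3). The log2 fold change was -0.96 (standard error 0.32, 95% interval -1.70 to -0.23), and edgeR gave an unadjusted p = 0.0171 and, adjusted, 0.152. This fitted value lay below those of the 10 genes, and it passed the adjusted threshold under none of the 15 alternative analyses, with adjusted p between 0.0527 and 0.394 (edgeR, DESeq2 or limma). The ratio of OPN1MW to OPN1SW was 1.34, 2.53 and 4.39 in normal retina and 1.36, 0.872 and 1.90 in PVR retina, and these ranges overlapped.

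Transducin carries the signal from the opsin and is built of an alpha, a beta and a gamma subunit. GNAT2, the cone alpha subunit, read 67.8, 47.8 and 73.9 FPKM in normal retina and 48.0, 39.3 and 56.1 FPKM in PVR retina. Normal replicate 2 lay among the PVR samples, and the other normal samples lay above all of them. The means were 63.2 ± 13.6 and 47.8 ± 8.38 FPKM (SD, n = 3). For GNAT2 the log2 fold change was -0.47 (standard error 0.19, 95% interval -0.90 to -0.03), and edgeR gave an unadjusted p = 0.0397 and, adjusted, 0.215. This was the smallest p of the 10 genes and ranked 3463 among all genes tested.

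GNGT2, the cone gamma subunit, read 59.2, 40.7 and 78.1 FPKM in normal retina and 43.1, 34.7 and 53.5 FPKM in PVR retina, again with normal replicate 2 among the PVR samples. Its log2 fold change of -0.50 was the lowest of the 10 (standard error 0.24, adjusted p = 0.282, edgeR). Its 95% interval, -1.06 to 0.07, was the only one of the 10 to reach beyond a log2 fold change of 1. GNB3, the beta subunit of cones, is also used by ON bipolar cells. It read 99.5, 87.1 and 80.2 FPKM in normal retina and 93.0, 103 and 84.8 FPKM in PVR retina, with the groups interleaved. For GNB3 the log2 fold change was 0.0037 (standard error 0.11, 95% interval -0.26 to 0.27, adjusted p = 0.989, edgeR). A difference between the subunits was not tested.

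Phosphodiesterase is the effector of the cascade. PDE6C, the catalytic subunit of cones, read 39.4, 26.5 and 33.7 FPKM in normal retina and 29.6, 27.5 and 30.0 FPKM in PVR retina. The PVR samples lay close together, above normal replicate 2 and below the other normal samples, and the means were 33.2 ± 6.51 and 29.0 ± 1.33 FPKM (SD, n = 3). For PDE6C the log2 fold change was -0.26 (standard error 0.14, 95% interval -0.59 to 0.07, adjusted p = 0.326, edgeR).

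PDE6H, the inhibitory subunit of the cone enzyme and the most abundant of the 10 transcripts, read 355, 240.3 and 391 FPKM in normal retina and 259, 216 and 286 FPKM in PVR retina. Normal replicates 1 and 3 lay above all PVR samples and normal replicate 2 among them. The means were 329 ± 78.6 and 254 ± 35.6 FPKM (SD, n = 3). The log2 fold change of PDE6H was -0.44 (standard error 0.19, 95% interval -0.87 to -0.0015), and edgeR gave an unadjusted p = 0.0494 and, adjusted, 0.235.

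The cyclic nucleotide-gated channel turns the fall in cyclic GMP into an electrical signal. CNGA3, its principal subunit, was the least abundant gene, at 6.23, 5.14 and 8.93 FPKM in normal retina and 5.31, 4.23 and 5.59 FPKM in PVR retina. CNGB3, the modulatory subunit, read 17.3, 11.7 and 15.2 FPKM in normal retina and 13.6, 11.7 and 13.6 FPKM in PVR retina. For both subunits normal replicates 1 and 3 lay above all PVR samples and normal replicate 2 did not. The log2 fold change of CNGA3 was -0.49 (standard error 0.21, 95% interval -0.98 to 0.01, adjusted p = 0.242, edgeR). That of CNGB3 was -0.25 (standard error 0.15, 95% interval -0.60 to 0.09, adjusted p = 0.36, edgeR).

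Shut-off of the light response requires phosphorylation of the opsin and capping by arrestin. GRK7, the cone opsin kinase, read 8.94, 6.35 and 7.52 FPKM in normal retina and 7.17, 6.95 and 7.47 FPKM in PVR retina, where all samples fell between normal replicates 2 and 3. Its log2 fold change was -0.15 (standard error 0.12, 95% interval -0.43 to 0.13, adjusted p = 0.502, edgeR). ARR3, the cone arrestin, read 260.2, 182 and 236 FPKM in normal retina and 196, 184 and 238 FPKM in PVR retina. The highest PVR sample exceeded normal replicate 3, and the log2 fold change was -0.20 (standard error 0.15, 95% interval -0.56 to 0.16, adjusted p = 0.484, edgeR). The 95% intervals of 9 of the 10 genes, all but GNGT2, lay within a log2 fold change of 1 on either side of 0, as did those of 61.4% of all genes.

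**Figure D2:**
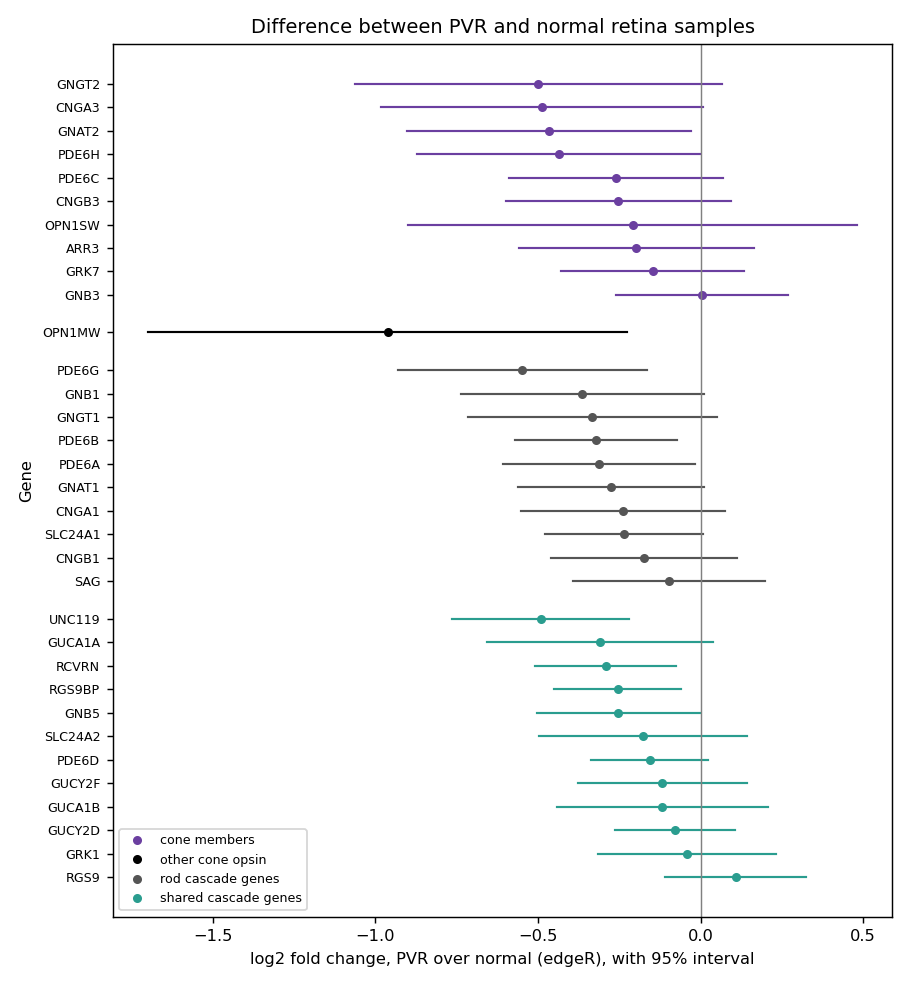
Fitted log2 fold change of PVR over normal from edgeR (point) with its 95% interval (line, 3 samples against 3) for the 10 cone genes, OPN1MW, 10 rod cascade genes and 12 shared cascade genes. The cone values run from -0.50 for GNGT2 to 0.0037 for GNB3 and 8 of the 10 cone intervals include 0, while OPN1MW stands at -0.96.

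The samples of each group differed from one another in most cone genes at once. After TMM scaling, which corrects each sample for depth and composition, normal replicate 2 was the lowest normal sample for 8 of the 10 genes, the exceptions being OPN1SW and GNB3. PVR replicate 2 was the lowest PVR sample for 9 of the 10 and PVR replicate 3 the highest, GNB3 being the exception to both. Relative to each gene's own mean over the 6 samples, the median FPKM of the 10 genes was 121%, 84.9% and 109% in normal replicates 1, 2 and 3 and 93.0%, 84.7% and 98.3% in PVR replicates 1, 2 and 3. The lowest samples of both groups thus stood at nearly the same level. The coefficient of variation was larger in the normal group for all 10 genes, ranging from 11.0% to 49.8% against 1.71% to 21.4% in PVR, while 54.3% of all genes had the larger value in the normal group. OPN1MW had 30.6% in normal and 38.9% in PVR retina.

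**Figure D3:**
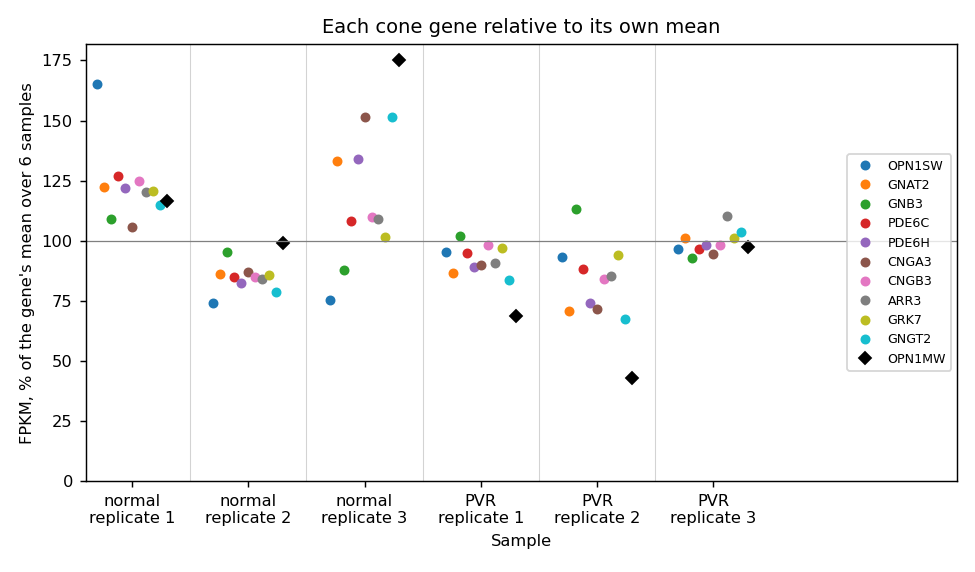
FPKM of each cone gene as a percentage of its own mean over the 6 samples (100% line), with 1 column per sample and OPN1MW as black diamonds. Most genes sit high in normal replicates 1 and 3 and low in normal replicate 2 and PVR replicate 2, whereas OPN1SW is high in normal replicate 1 alone, at 165%, and GNB3 stays between 87.8% and 113%.

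On the TMM scale, 0 of the 10 genes had all PVR samples below all normal samples, against 14.6% of all genes tested. Without normal replicate 2 this held for 8 of the 10, all but OPN1SW and GNB3, against 18.7% of all genes. On the FPKM scale it held for 7 of the 10 without that sample, against 14.4% of all genes, since ARR3 then overlapped. Without PVR replicate 3 it held on the TMM scale for GNAT2, CNGA3 and GNGT2, 3 of the 10 against 23.0% of all genes, and on the FPKM scale for 0. With any of the other 4 samples left out it held for 0 on both scales, against 16.9% to 22.9% of all genes on the TMM scale. The share of all genes on the FPKM scale is given only without normal replicate 2.

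Leaving out normal replicate 2 moved the median log2 fold change of the 10 genes to -0.39. The log2 fold change was then -0.61 for GNAT2, -0.69 for GNGT2, -0.60 for PDE6H and -0.63 for CNGA3, and between -0.39 and 0.01 for the other 6. An unadjusted p under 0.05 was reached by 6 of the 10, all lower in PVR, against 6.67% of all genes called lower in that fit. The adjusted threshold was reached by 0 of the 10, against 0.396% of all genes, the smallest adjusted p being 0.161, for PDE6H (edgeR, 2 normal samples and 3 PVR samples). The part of the lens RNA in these values was not tested. Without PVR replicate 3, an unadjusted p under 0.05 in edgeR was reached by 4 of the 10, against 4675 of 19189 genes in either direction. Without normal replicate 1 it was reached by 1, against 3193 of 19413 genes. Without normal replicate 3, PVR replicate 1 or PVR replicate 2 it was reached by 0. Most of the 10 genes varied together over the samples, so these counts are not of independent genes.

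Of the cone genes, 9 were next set beside a rod counterpart in the same sample. This ratio is free of scaling between samples, but its level depends on the lengths used for both genes. The 10 cone genes together stood at 10.3%, 8.76% and 10.5% of the summed FPKM of 10 rod cascade genes in normal retina and at 9.87%, 9.94% and 9.77% in PVR retina, so the groups overlapped. A few genes weighed most in these sums. In normal retina PDE6H and ARR3 averaged 329 and 226 of 936 FPKM, and GNGT1 averaged 3216 of 9434 FPKM. By summed counts the percentages were 13.3%, 11.0% and 13.7% in normal and 12.4%, 12.6% and 12.6% in PVR retina. The ratios of both groups overlapped for each of the 9 pairs as well, where the two-sided exact permutation p was between 0.2 and 0.8 before and 0.8 after Benjamini-Hochberg adjustment over 10 ratios, the ratio of the opsins included (3 samples against 3 cannot go below 0.1). GNAT2 was at 5.86% ± 1.08 of GNAT1 in normal and at 5.13% ± 0.283 in PVR retina (SD, n = 3). PDE6C was at 5.82% ± 1.09 of PDE6A in normal and at 5.98% ± 0.387 in PVR retina (SD, n = 3). PDE6H came closest in level to its counterpart, at 57.4% ± 10.4 of PDE6G in normal and 62.8% ± 4.06 in PVR retina (SD, n = 3).

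The other pairs were further apart in level. CNGB3 was between 16.0% and 24.6% of CNGB1 over the 6 samples, and ARR3 between 12.6% and 18.0% of SAG, the rod arrestin. GNB3 was between 8.20% and 14.2% of GNB1, and GRK7 between 3.59% and 4.49% of GRK1, another opsin kinase. GRK1 is listed here among the shared cascade genes, so its ratio is not strictly cone over rod. CNGA3 was between 1.36% and 2.20% of CNGA1, and GNGT2 between 1.45% and 2.44% of GNGT1.

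**Figure D4:**
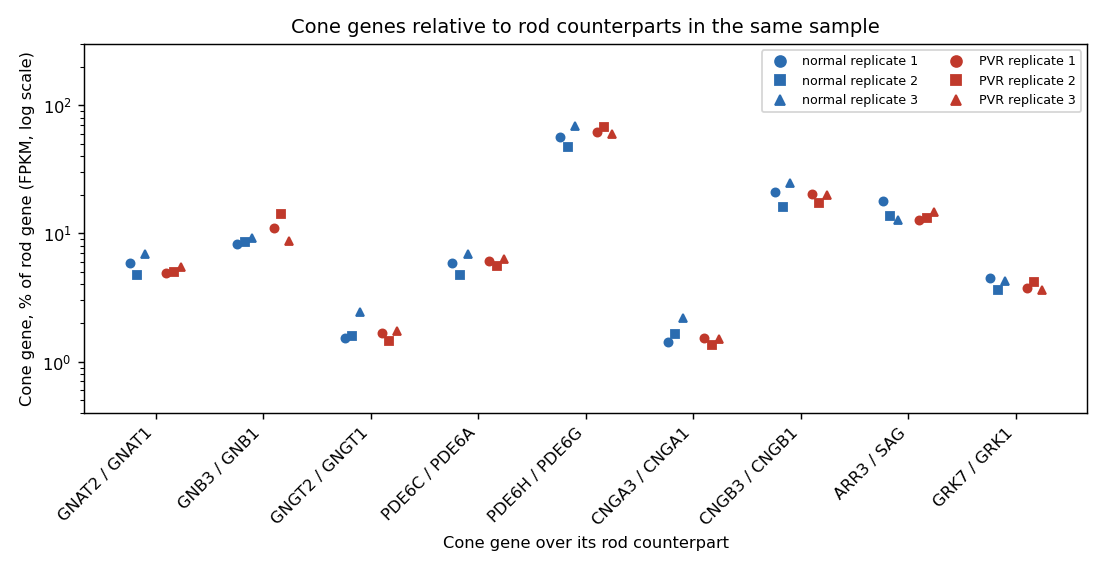
FPKM of each of 9 cone genes as a percentage of its rod counterpart in the same sample, on a log scale (points, coloured by group and shaped by replicate). The groups overlap in all 9 pairs, which reach from 1.36% for CNGA3 over CNGA1 to 68.3% for PDE6H over PDE6G. GRK1, set against GRK7, is listed among the shared cascade genes.

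The rod cascade genes had fitted values of similar size. On the TMM scale, all PVR samples lay below all normal samples for 5 of 10 rod genes and 5 of 12 shared cascade genes. This held for 0 of the 10 cone genes and for 14.6% of all genes tested. Of 10 rod genes, 0 passed the adjusted threshold (edgeR; 3 at an unadjusted p under 0.05), all 10 had a fitted log2 fold change below 0, and the median was -0.29. GNGT1, the rod gamma subunit, stood at -0.33 (standard error 0.16, edgeR adjusted p = 0.288) and SAG at -0.097 (standard error 0.13, edgeR adjusted p = 0.685), or at 0.046 without normal replicate 3. DESeq2 called 1 rod gene lower, PDE6G, the rod inhibitory subunit. The 12 shared cascade genes were listed as serving the cascade in rods and cones or assisting it, not all of them equally in both. Of the 12, 0 passed in edgeR (4 at an unadjusted p under 0.05), 11 were fitted below 0, and the median was -0.17. UNC119, a chaperone of transducin, stood at -0.49 (standard error 0.12, edgeR adjusted p = 0.0849) and was the only one of the 12 called by DESeq2, with an adjusted p of 0.00258. GUCA1B, an activator of the guanylate cyclase that restores cyclic GMP, stood at -0.12 (standard error 0.14, edgeR adjusted p = 0.649). A difference between the cone list and these lists was not tested.

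A list of 5 cone identity genes outside the cascade was also read, not all of them particular to cones. Of these, 0 passed in edgeR or DESeq2 and 0 had an unadjusted p under 0.05 in edgeR. Their median log2 fold change was -0.049, or -0.17 without normal replicate 2. KCNV2, a potassium channel subunit of rods and cones, stood at -0.23 (standard error 0.11, edgeR adjusted p = 0.256), and DHRS3, a retinal reductase, at -0.25 (standard error 0.23, edgeR adjusted p = 0.552), both near the median of the 10 cone genes. RXRG, a nuclear receptor of cones, stood at -0.049 (standard error 0.18, edgeR adjusted p = 0.893). Its direction turned without normal replicate 1, normal replicate 3 or PVR replicate 2 (0.052, 0.014 and 0.052). The other 2 of the 5 were fitted above 0. These were THRB at 0.021 (standard error 0.14, edgeR adjusted p = 0.948) and SALL3 at 0.043 (standard error 0.22, edgeR adjusted p = 0.928). Of 5 photoreceptor transcription factors, 0 passed in edgeR or DESeq2. Their median log2 fold change was 0.12, with 4 fitted above 0 and 1 below. An unadjusted p under 0.05 in edgeR was reached by 2. These were NRL, the rod determinant, at -0.38 (standard error 0.14, edgeR adjusted p = 0.187), and NEUROD1 at 0.32 (standard error 0.11, edgeR adjusted p = 0.156).

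Markers of other cells were read in the same edgeR fit, where 3963 of 18697 genes had an unadjusted p under 0.05 in either direction. The median log2 fold change of 9 bipolar genes was -0.0096, that of 8 amacrine and horizontal genes -0.050 and that of 7 ganglion cell genes -0.22, with 0 called by edgeR or DESeq2 and 0, 2 and 0 at an unadjusted p under 0.05. Of 7 Mueller glia genes, with a median of -0.17 and 4 at an unadjusted p under 0.05, 2 fell in edgeR, GLUL (glutamine synthetase) by 1.11 and RLBP1 (a retinaldehyde carrier of the visual cycle) by 0.89 on the log2 scale (adjusted p = 0.0125 and 0.0294). GFAP, a filament protein of reactive glia in the same list, was fitted at 1.39 (standard error 0.44, edgeR adjusted p = 0.143). It read 20.0, 60.5 and 86.1 FPKM in normal and 157, 164 and 138 FPKM in PVR retina. DESeq2 called 3 of the 7 lower, GLUL, RLBP1 and KCNJ10. The call of GLUL was lost without PVR replicate 1 (adjusted p = 0.106, edgeR), and that of RLBP1 without normal replicate 1 or 2 or PVR replicate 1 or 2 and with the replicate block (adjusted p between 0.0665 and 0.188, edgeR).

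Of 5 pigment epithelium genes tested, with a median of -1.40 and 4 at an unadjusted p under 0.05, 2 fell, LRAT by 2.82 and TTR by 1.56 on the log2 scale (adjusted p = 0.0459 and 0.0478, edgeR). DESeq2 called 3 lower, LRAT, TTR and RPE65. BEST1 of the same list was fitted at 0.53 (standard error 0.21, edgeR adjusted p = 0.215). Its level was low, at 0.367 to 0.441 FPKM in normal and 0.550 to 0.754 FPKM in PVR retina. The calls of LRAT and TTR were each lost under 9 of the 15 alternatives (adjusted p between 0.0523 and 0.240), namely with limma-voom, both FPKM scales, the replicate block and any sample but normal replicate 3 left out. The summed FPKM of 6 pigment epithelium genes was between 91.3 and 202 in normal and between 47.2 and 56.0 in PVR retina. That of 7 microglia and macrophage genes was between 11.8 and 31.0 in normal and between 34.5 and 50.7 in PVR retina, with a median log2 fold change of 0.86, 0 called by edgeR (3 at an unadjusted p under 0.05) and 2 by DESeq2. Of the 8 lens genes, 0 passed in edgeR (1 at an unadjusted p under 0.05), and their median of -5.62 rested on normal replicate 2. The part of these cells in the cone values was not tested.

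The genes whose pattern over the 6 samples was most like the mean of the 10 cone genes were USO1, CNGA1, LAPTM4B, MED17 and UGGT1. Their Pearson r with that mean was between 0.992 and 0.998 over 6 samples that share their libraries, and they are the 5 highest of 9506 candidates. CNGA1 is the rod counterpart of CNGA3, while USO1 and UGGT1 serve the secretory pathway. Their log2 fold changes were between -0.24 and -0.10, with adjusted p between 0.344 and 0.46 (edgeR). Among the cone genes, each of which is part of the mean, CNGB3 followed it most closely (r = 0.983 over 6 samples), while OPN1SW had r = 0.57 and GNB3 had r = -0.13.

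The absence of calls among the 10 genes held under all 15 alternatives, and their median log2 fold change stayed between -0.39 and -0.12. The smallest adjusted p of any alternative was 0.0843, that of GNAT2 with DESeq2. All but OPN1SW and GNB3 had fitted values below 0 in each of the 15.

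**Figure D5:**
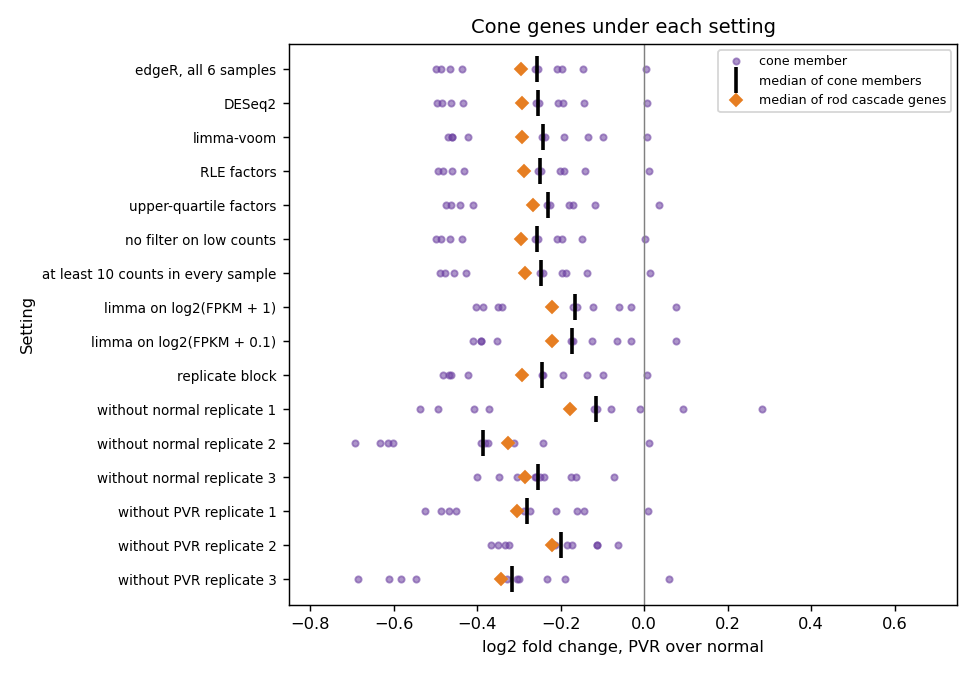
Fitted log2 fold change of the 10 cone genes (purple points), their median (black bar) and the median of 10 rod cascade genes (orange diamond) for edgeR on all 6 samples and for each of the 15 alternatives. The cone median lies below 0 throughout, between -0.39 and -0.12, nearest to 0 without normal replicate 1 and farthest without normal replicate 2.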

How the data were processed

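PolyA RNA of 3 normal and 3 PVR rabbit retina samples was analysed, grouped by their titles. The authors aligned reads to OryCun2.0 with HISAT2 and obtained a count per gene with htseq-count, after fastp as listed in the submitters' processing notes. They deposited raw counts and FPKM values, whose quotient gave 1 length per gene. Strand setting and annotation release are not given in the sources used here. Counts were fitted with edgeR 4.0.16 in R 4.3.3 (default low-count filter, which kept 18697 genes and all 10 cone genes; TMM factors; condition as the only term; Benjamini-Hochberg adjustment). Intervals of 95% use the moderated degrees of freedom. The 15 alternatives were DESeq2 1.42.0, limma-voom (limma 3.58.1), RLE and upper-quartile factors, no filter, at least 10 counts in every sample, limma on log2(FPKM + 1) and log2(FPKM + 0.1), the replicate number as a block, and the omission of each of the 6 samples. The fits were tested on simulated data. Ratios were compared in SciPy 1.17.1.

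The cone genes and the other lists were chosen with earlier results of these data known. Of 98 symbols in 13 lists, 91 matched by symbol and 4 through RefSeq gene numbers (mOryCun1.1, names only). 1 gene is not reported here and was left out of the lists and ratios. The rule for named genes took the 10 cone genes, called genes of each list, the 2 most abundant genes of each list and the 5 genes most alike in pattern with a mean log2 CPM of at least 3. The abundant genes of the lists for other cells are summarised by list. The rod counterparts, DHRS3, THRB, SALL3, GFAP, KCNJ10, RPE65 and BEST1 were added after values were seen. Counting errors cover sampling of reads only, which were not tagged as single molecules.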

Additional observations from a re-analysis of the deposited data

How the results depend on the processing

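Of the 10 cone genes, 8 kept their direction and their side of the threshold under all 15 alternatives. OPN1SW and GNB3 changed direction with samples left out, with log2 fold changes from -0.40 to 0.28 and from -0.072 to 0.094. Over all genes, 318 passed the adjusted threshold and 188 also the fold threshold, against 1755 and 807 with DESeq2 and 92 and 82 with the replicate block, and 87 passed both on the log2(FPKM + 1) scale. With single samples left out these counts ran from 22 to 650 and from 22 to 436, lowest without PVR replicate 1 and highest without PVR replicate 3. The causes were not tested. The median of the cone identity genes ran from -0.17 (without normal replicate 2) to 0.014 with samples left out, and was 0.024 and 0.028 on the log2(FPKM + 1) and log2(FPKM + 0.1) scales, values that are those of RXRG, which ran from -0.18 to 0.052 with samples left out. SAG ran from -0.17 to 0.046 with samples left out, changing direction without normal replicate 3. The correlations of same-numbered deviations from the group means were -0.013, 0.073 and 0.042. Normal replicates 2 and 3 correlated best with the PVR replicate of the same number, and normal replicate 1 with PVR replicate 3. The block gave each of the 10 cone genes a smaller standard error, 0.095 against 0.24 for GNGT2 and 0.11 against 0.12 for GRK7. These values do not settle whether the replicate numbers pair the samples. With the block, 0 of the 10 cone genes were called, with a smallest adjusted p of 0.106 (edgeR).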
